A study of Mus musculus with 4 samples.

Results

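The B cells of this dataset were chosen by their own raw counts, as barcodes that carried B cell receptor transcripts and no T cell receptor complex transcripts. From single-cell libraries of CD45+ cells, the leukocytes, of mouse salivary gland, a barcode was kept if it held 500 UMIs or more (unique molecular identifiers, which count molecules) and 300 genes or more, and if mitochondrial UMIs made up no more than 10%. It was called a B cell with at least 2 UMIs of Cd79a, at least 1 of Ms4a1 and Cd79b together, none of Cd3e, Cd3d and Cd3g, and at most 5 of C1qa, C1qb and C1qc together. The rule found 675 B cells among 37644 kept barcodes. The mice were 20 days old, of the strain labelled C56BL/6, and carried either no functional Csf2 allele (Csf2-/-) or 1 (Csf2+/-). Csf2 is the gene of the myeloid growth factor GM-CSF, and no library was from mice with both alleles intact. Each genotype had 1 female and 1 male library, and each library was a pool of 2 mice, enriched with magnetic beads and then sorted by flow cytometry, so n was 2 libraries per genotype and sex was balanced between genotypes.

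B cells are made in the bone marrow, where Rag1 and Rag2 assemble the heavy chain and then a kappa or lambda light chain. They leave as transitional cells bearing surface IgM and, on maturing in spleen and lymph nodes, add IgD (Ighd) and the low-affinity IgE receptor CD23 (Fcer2a) while losing the early marker CD93. Activated cells can switch to another heavy chain class or become antibody-secreting plasma cells, which make the joining chain (Jchain). Salivary glands are best known for the IgA plasma cells that lie around their acini and ducts in adults.

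The targeted gene was checked first. Over all kept barcodes Csf2 had 103 and 127 UMIs in the Csf2-/- female and male libraries, against 2023 and 2029 UMIs in the Csf2+/- female and male libraries. Within B cells it had 0 and 0 UMIs in Csf2-/- libraries and 8 and 7 UMIs in Csf2+/- libraries. Of Y-linked genes, 4 summed to 11.0 and 349 CPM (UMIs of a gene per 1000000 UMIs of the cells summed) in B cells of the Csf2-/- female and male libraries and to 0 and 355 CPM in those of the Csf2+/- female and male libraries, so the sex labels and the data matched apart from a low level in the Csf2-/- female. Total UMIs per library ran from 111981802 to 122366588. No B cell barcode occurred in more than 1 library.

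The B cell label held for the cells the rule chose. Its own genes are given as a description: Cd79a averaged 2377 CPM over the 4 libraries, Cd79b 1266 CPM and Ms4a1 (CD20) 1028 CPM. Markers the rule did not read were as widespread. Ebf1, a transcription factor that sets B lineage fate, had a UMI in 98.1% to 99.6% of B cells per library and averaged 3488 CPM, against 1.38 CPM in T cells (barcodes with at least 2 Cd3 UMIs, no UMI of Cd79a, Cd79b or Ms4a1 and at most 5 C1q UMIs). Bank1, a B cell receptor adaptor, averaged 1459 CPM in B cells and 2.22 CPM in T cells. Pax5, which maintains B cell identity, averaged 515 CPM in B cells and 0.0704 CPM in T cells. The 15 genes with the largest ratio of B cells over all other kept cells included Vpreb3, Klhl14, Cd79a, Ms4a1, Jchain, Pax5, Agbl1, Chst3, Fcmr, Iglc1, Iglc2, Pou2af1, Igkc and Il5ra. They include both light chain classes and the B lineage coactivator Pou2af1. Cd79a and Ms4a1 were read by the rule, so their place among the 15 is no support for the label. Jchain had a UMI in only 0.943% to 1.92% of B cells per library. Il5ra, the IL-5 receptor alpha chain, which in mouse B cells is known from the B-1 lineage, was in 37.7% to 44.0% of B cells per library at 171 and 208 CPM in Csf2-/- libraries and 166 and 172 CPM in Csf2+/- libraries, while T cells averaged 0.0678 CPM.

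The edge of the rule was thin. Only 8 cells had exactly 2 Cd79a UMIs, 7 of them with an Ebf1 UMI, and 10 barcodes that met the other criteria had 1 Cd79a UMI, 6 of them with an Ebf1 UMI. More barcodes were lost to the other criteria: 73 had at least 2 Cd79a UMIs and a Cd3 UMI, and 65 had more than 5 C1q UMIs. Those barcodes also carried B cell genes (Ebf1 in 71 of the 73 and in all 65), and their median depth was 12103 UMIs or more in every library.

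B cells were a small part of the gland's leukocytes and a smaller one in Csf2-/- than in Csf2+/- libraries. The Csf2-/- female and male libraries held 166 B cells (1.70% of kept barcodes, exact binomial 95% interval 1.45 to 1.98%) and 106 (1.11%, 0.907 to 1.34%). The Csf2+/- female and male libraries held 247 (2.58%, 2.27 to 2.92%) and 156 (1.78%, 1.52 to 2.08%). The intervals cover counting error only, not the spread between mice. The share averaged 1.40 ± 0.421% in Csf2-/- libraries and 2.18 ± 0.565% in Csf2+/- libraries (SD, n = 2 each), a difference of -0.778 percentage points, and the genotypes did not overlap although the Csf2-/- female and the Csf2+/- male lay close together. The difference was -0.880 points between the female libraries and -0.676 points between the male ones. The female library had the larger share in both genotypes. A two-sided exact permutation test gave p = 0.333, and 0.33 is the smallest p that 2 libraries against 2 allow, so no genotype difference in any share could pass here. The size rested on single libraries: the difference became -0.378 points when the female Csf2+/- library was left out, -0.480 points when the male Csf2-/- library was, and -1.18 points when the male Csf2+/- library was. It was -0.430 points under a stricter rule that left out every cell with a C1q UMI or a UMI of Lyz2, Ncr1, Gata3, Siglech or Epcam.

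As a share of B and T cells together, which leaves the myeloid cells out, B cells made up 6.43% and 5.12% in the Csf2-/- female and male libraries and 9.33% and 7.49% in the Csf2+/- female and male. The difference was -2.63 percentage points (exact permutation p = 0.333), again lower in Csf2-/- in both sexes. A share of a sorted library cannot tell fewer B cells apart from more cells of other kinds.

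**Figure D1:**
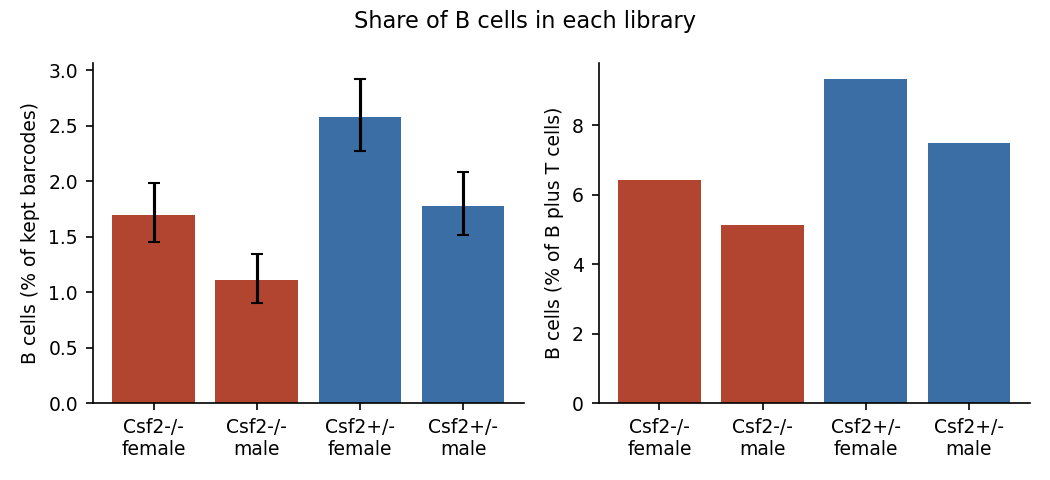
B cells as a percentage of kept barcodes (left, with exact binomial 95% intervals of counting error) and of B plus T cells (right), 1 bar per library. The 2 Csf2-/- libraries, at 1.70% and 1.11% of kept barcodes, lie below the 2 Csf2+/- libraries, at 2.58% and 1.78%.

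Nearly all the B cells had Ighm transcripts, and few had a UMI of 5 chosen genes of bone marrow precursors. An Ighm UMI was found in 99.4% to 100% of B cells per library, against 48.8% to 62.0% of T cells, and Ighm averaged 6677 CPM in B cells and 111 CPM in T cells. Rag1, Rag2, Dntt, Vpreb1 and Igll1, which take part in rearranging the receptor genes or form the surrogate light chain, were pooled into 1 share. To make depths comparable, shares are given as the expected share once each cell is thinned to 2000 UMIs (8 B cells were shallower and left out), since median UMIs per B cell were 4712 and 4659 in the Csf2-/- female and male libraries and 5297 and 5250.5 in the Csf2+/- female and male libraries, and those of T cells were 8717 and 8616 in Csf2-/- libraries and 11004 and 10619 in Csf2+/- libraries. A UMI of any of the 5 precursor genes was in 0.648% and 0.385% of Csf2-/- B cells and 0.636% and 0.158% of Csf2+/- B cells, against 0.217% and 0.201% of Csf2-/- T cells and 0.0831% and 0.145% of Csf2+/- T cells. The B cell share was the higher one in all 4 libraries, but it rests on few UMIs. Unthinned this was 3 of 166 and 1 of 106 cells in Csf2-/- libraries, and 3 of 247 and 1 of 156 in Csf2+/- libraries. Igll1, Vpreb2 and Erg had no UMI in any B cell. The other 14 of the 17 pro-B and pre-B genes listed had one, Vpreb3 and Il7r among them. The list summed to 541 and 758 CPM in Csf2-/- and 596 and 451 CPM in Csf2+/- B cells, beside a mean of 588 CPM in T cells.

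IgD marks naive mature cells. After thinning, an Ighd UMI was in 34.7% and 27.8% of B cells in the Csf2-/- female and male and in 30.7% and 30.9% in the Csf2+/- female and male, against 0.340% to 0.553% of T cells. Unthinned, Csf2-/- libraries had 59.0% and 49.1% and Csf2+/- libraries 56.3% and 60.9%, with exact 95% intervals that reached from 39.2 to 59.0% in the Csf2-/- male and from 52.8 to 68.6% in the Csf2+/- male. The direction between genotypes differed between the sexes, and between the thinned difference (0.451 points) and the unthinned one (-4.54 points).

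Other genes of recirculating follicular B cells were detected too. Ccr7, the receptor that guides lymphocytes to lymph node T cell zones, was in 70.0% and 62.2% of Csf2-/- B cells and 70.1% and 70.2% of Csf2+/- B cells after thinning, against 1.52% to 2.34% of T cells. This share and that of Vpreb3 were chosen after the data were seen. Cxcr5, the receptor for the follicle chemokine CXCL13, stood at 168 and 156 CPM in Csf2-/- and 168 and 171 CPM in Csf2+/- libraries. Klf2, which keeps lymphocytes recirculating, stood at 1440.2 and 1032 CPM in Csf2-/- and 1257 and 907 CPM in Csf2+/- libraries, with both female libraries above both male ones. Fcer2a (CD23) was rarer: 9.11% and 7.98% of Csf2-/- B cells and 5.75% and 7.82% of Csf2+/- B cells had a UMI after thinning, a difference of 1.77 points that was -0.0840 points unthinned. Cr2 (CD21), the complement receptor high on marginal zone and mature follicular cells, was in 2.47% and 3.02% of Csf2-/- B cells and 5.27% and 2.79% of Csf2+/- B cells. T cells had Fcer2a in at most 0.0290% and Cr2 in at most 0.0201%, so both genes lay above that background in every library.

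Genes of transitional B cells were mixed. Vpreb3, a partner of the receptor's light chain that is high in late precursors and immature B cells, led the defining genes at 307 and 438 CPM in Csf2-/- and 351 and 224 CPM in Csf2+/- libraries. Thinned, 41.9% and 44.9% of Csf2-/- B cells and 41.8% and 37.2% of Csf2+/- B cells had a UMI, against at most 0.0288% of T cells. Cd24a, high on transitional cells, averaged 317 CPM in B cells and 32.4 CPM in T cells, and ran from 306 to 322 CPM over the 4 libraries. Not all genes on the transitional list were higher than in T cells. Bcl2l11, a pro-apoptotic gene, averaged 200.3 CPM in B cells and 273 CPM in T cells. Dgkg was low in both, at 3.31 CPM in B cells and 2.56 CPM in T cells. Cd93 was low. It was in 4.18% and 4.39% of Csf2-/- B cells and 3.68% and 2.80% of Csf2+/- B cells after thinning, against 2.59%, 3.62%, 2.34% and 2.16% of T cells in the same libraries. It stood at 20.9 and 23.0 CPM in Csf2-/- and 15.7 and 12.4 CPM in Csf2+/- B cells, against 11.0 and 15.5 CPM in Csf2-/- T cells and 10.2 and 9.95 CPM in Csf2+/- T cells, so it was above the T cells of the same library in all 4 libraries, by little.

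Ighd and Vpreb3 did not split the cells into 2 sets. Over the 675 B cells at their own depth, 33.6% had UMIs of both genes, 23.3% of Ighd without Vpreb3, 28.4% of Vpreb3 without Ighd, and 14.7% of neither. Fcer2a or Cr2 was found in 28.7% of the cells with Ighd but no Vpreb3 in 13.5% of those with Vpreb3 but no Ighd, in 25.1% of those with both and in 27.3% of those with neither. The median depths of these 4 sets were 5251, 4677, 5117 and 5321 UMIs. In the Csf2+/- male the same 4 percentages were 16.7, 13.9, 25.4 and 48.0%. These cells come from 4 libraries, so the percentages are a description.

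**Figure D2:**
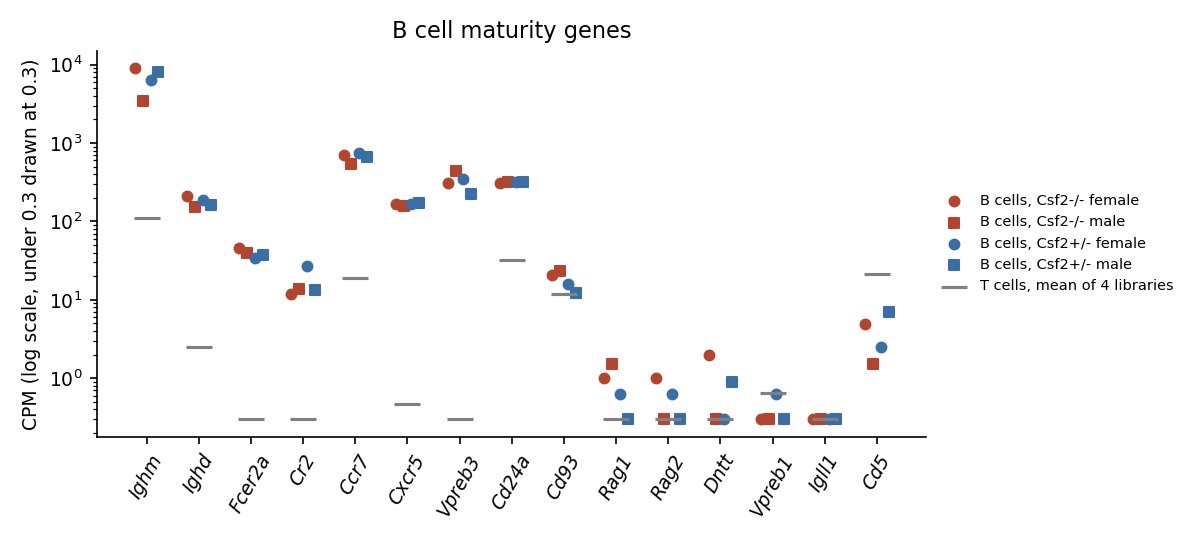
Summed level of maturity genes in B cells, in CPM on a log axis with values under 0.3 drawn at 0.3, by library (red Csf2-/-, blue Csf2+/-, circles female, squares male), with the mean of T cells as a grey line. Ighm, Ighd, Ccr7, Cxcr5, Vpreb3 and Cd24a lie well above the T cell line in all 4 libraries and Cd93 lies near it. Rag1, Rag2, Dntt, Vpreb1 and Igll1 lie near 0.

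Neither of the innate-like B cell types stood out by its genes. Of 20 B-1 cell genes, all had a UMI in B cells, and their sum was 2329.8 and 2478 CPM in Csf2-/- and 2349 and 2589 CPM in Csf2+/- libraries. Plac8 and Il5ra had high levels, at 1043 and 179 CPM on average. Cd5, the classical B-1a marker, was in 0.586% and 0.316% of Csf2-/- B cells and 0.295% and 0.850% of Csf2+/- B cells after thinning. T cells, which express Cd5 themselves and so give no background for it, had it in 2.73% to 5.26%. Zbtb32 averaged 9.27 CPM. Of marginal zone genes, Notch2 averaged 194 CPM in B cells and 101 CPM in T cells, while Dtx1, its target, averaged 22.7 CPM, Cd1d1 15.2 CPM and Cd9 57.7 CPM, Cd9 being lower than in T cells (111 CPM).

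Most B cells carried UMIs of both light chain classes. Igkc, the kappa constant gene, was in 95.9% and a lambda constant gene (Iglc1, Iglc2 or Iglc3) in 99.3% of the 675 B cells, and 95.4% had both. Igkc was in at most 1.61% of T cells. The median B cell held 37 kappa and 17 lambda UMIs. Of 663 cells with at least 10 light chain UMIs, 76.9% had between 50 and 90% kappa and 11.3% between 10 and 50%. Only 6.64% were at least 90% kappa and 5.13% at most 10% kappa, the pattern of a cell using a single class. Iglc2 and Iglc3 are near-identical copies, so how UMIs were shared between them is uncertain. Whether the lambda UMIs come from rearranged genes was not tested.

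**Figure D3:**
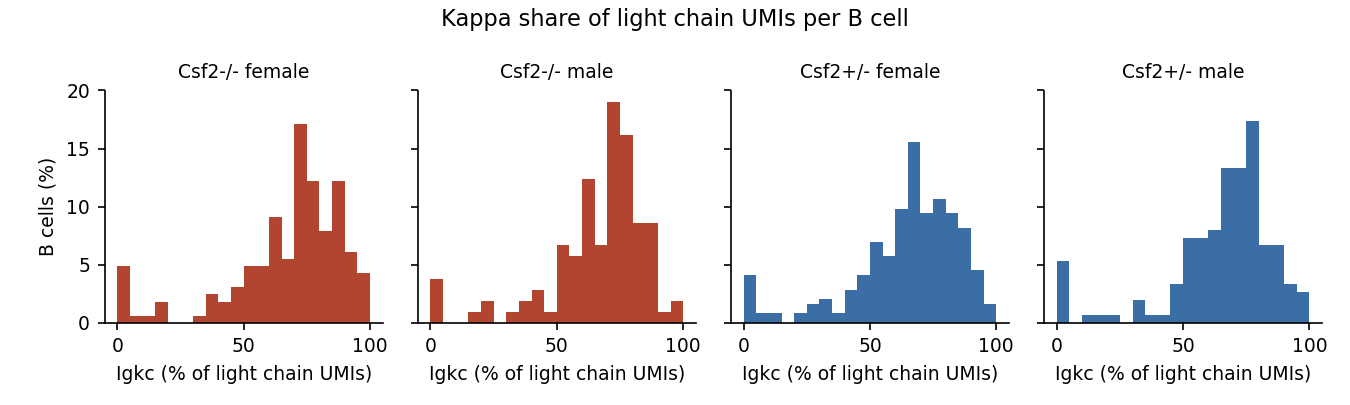
Percentage of B cells by the kappa (Igkc) share of their light chain UMIs, in bins of the share from 0 to 100%, 1 panel per library, for cells with at least 10 light chain UMIs. In every library most cells fall between 50 and 90% kappa, with a small group near 0.

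By UMIs rather than cells, kappa made up 89.3% and 76.5% of light chain UMIs in Csf2-/- B cells and 80.2% and 84.3% in Csf2+/- B cells. Ighd UMIs per 100 Ighm UMIs numbered 2.32 and 4.45 in Csf2-/- B cells and 2.96 and 2.03 in Csf2+/- B cells. Neither ratio kept 1 direction in both sexes. In T cells Igkc was 1.04 to 1.95 UMIs per 100 Ighm UMIs, against 220.1 to 386 in B cells, so the Ighm of T cells did not come with light chain in the proportion seen in B cells.

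A few antibody-secreting cells held much of the immunoglobulin UMIs. Only 5 of the 675 B cells had at least 100 Jchain UMIs. Of these, 2 lay in the Csf2-/- female library, 1 in the Csf2-/- male, 1 in the Csf2+/- female and 1 in the Csf2+/- male. Each held 25596 to 34684 UMIs, of which immunoglobulin genes made up 23.8% to 61.3%. The lead heavy chain was Igha in 1 cell of the Csf2-/- female (4072 UMIs) and in the cell of the Csf2-/- male (1806 UMIs). It was Ighm in the other cell of the Csf2-/- female and in both Csf2+/- cells, at 4545 to 5851 UMIs. All 5 had UMIs of Xbp1 and Prdm1, which drive the secretory programme, and none had a UMI of Pax5 or Bank1, which plasma cells switch off. Not every gene followed. Of other plasma cell genes, Sdc1 had 1 to 9 UMIs in each cell, but Mzb1 had 1 UMI in the Csf2-/- male cell and none elsewhere. Irf4 had 0 UMIs in the Csf2+/- male cell and 1 to 7 in the rest. Ms4a1 had 1 UMI in the Ighm cell of the Csf2-/- female and 4 in the Csf2+/- female cell. Leaving out these 5 cells lowered Igkc to 9332 and 7175 CPM in Csf2-/- libraries, where it had been 33009 and 13156 CPM. In Csf2+/- libraries it fell to 6676 and 5354 CPM from 14801 and 17712 CPM. Jchain without them was 16.0 and 0 CPM in Csf2-/- and 8.99 and 7.28 CPM in Csf2+/- libraries. Without them Igha had 1 UMI in 1 cell of each Csf2-/- library, and 2 UMIs in 2 cells and 1 UMI in 1 cell of the Csf2+/- libraries.

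Class-switched B cells were at or near background. A UMI of Ighg1, Ighg2b, Ighg2c, Ighg3 or Igha was in 1.19% and 1.46% of Csf2-/- B cells and 0.779% and 0.427% of Csf2+/- B cells after thinning, against 0.862% and 0.570% of Csf2-/- T cells and 1.36% and 1.04% of Csf2+/- T cells. Ighg1, Ighg2c and Ighe had no UMI in any B cell. Without the 5 secreting cells the genotype difference in this share, 0.726 points, was -0.0580 points.

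Few B cells were dividing. Mki67 or Top2a was in 1.81% and 6.54% of Csf2-/- B cells and 2.61% and 4.88% of Csf2+/- B cells after thinning, with both male libraries above both female ones, against 9.90% to 13.2% of T cells. At least 3 UMIs of the 2 genes were found in 12 B cells, of which 7 were called doublets or carried genes of another lineage. The T cells of the same libraries held 886 such cells.

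Between genotypes, UMIs were summed over the B cells of each library and tested across 8046 genes with edgeR's quasi-likelihood test, with p-values adjusted by Benjamini-Hochberg at 0.05. It called 7 genes, 0.0870% of those tested: 5 higher in Csf2-/- (0.0621%) and 2 lower (0.0249%). At an unadjusted p under 0.05, 228 genes were higher (2.83%) and 248 lower (3.08%). The libraries of the genotypes did not overlap for 36.6% of genes, and the median log2 change over all genes was 0.01. DESeq2 called 7 genes, 4 of them shared (Fos, Igha, Lyz1 and Stab2), and limma-voom called 0. Leaving out 1 library moved these counts. There were 35 higher and 8 lower genes when the female Csf2-/- library was dropped, 17 and 5 for the male Csf2-/- library, 0 and 13 for the female Csf2+/- library, and 7 and 12 for the male Csf2+/- library. In each of these fits 1 genotype has a single library, which is assumed to vary like the 2 of the other genotype. Of the 7 genes Lyz1 alone was called in all 4. The 2 libraries per genotype were separate pools of mice, so the spread between them is that between a female and a male pool.

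Of the 7 calls, 6 rested on very few cells. Igha was called at a log2 change of 11.51 (SE 0.46, adjusted p = 0.0278 by edgeR). It had 4073 and 1807 UMIs in Csf2-/- B cells, of which 4072 and 1806 were those of the single IgA-secreting cell in each library, against 2 and 1 UMIs in Csf2+/- B cells. The pooled ratio of its levels was 3223, with a counting interval of 1102 to 15634. Pls1, an actin-bundling protein, had 21 and 17 UMIs in 3 and 2 Csf2-/- B cells and 1 UMI in 1 cell of each Csf2+/- library (log2 change 4.82, SE 0.70, adjusted p = 0.0193 by edgeR, pooled ratio 31.2 with a counting interval of 8.07 to 267). Without the secreting cells Pls1 did not reach the count filter and was not tested. Stab2, a scavenger receptor of sinusoidal endothelium, had 29 and 44 UMIs in 3 cells and 1 cell of the Csf2-/- libraries and 3 and 5 UMIs in 1 cell each of the Csf2+/- libraries (log2 change 3.96, adjusted p = 0.0275 by edgeR). It was more abundant in T cells, at 76.9 and 137 CPM in Csf2-/- and 65.8 and 61.1 CPM in Csf2+/- libraries.

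Both genes that were lower are myeloid. Lyz1, a lysozyme, had 1 and 2 UMIs in 1 cell each of the Csf2-/- libraries and 74 and 83 UMIs in 5 cells each of the Csf2+/- libraries (log2 change -4.89, SE 0.50, adjusted p = 0.000660 by edgeR). A single cell held 70 of the 74 and another 37 of the 83. In all other kept cells Lyz1 stood at 14.1 and 18.3 CPM in Csf2-/- and 43.3 and 81.6 CPM in Csf2+/- libraries. Fcrls, a macrophage and microglia gene, had 3 UMIs in 2 cells of each Csf2-/- library and 60 and 25 UMIs in 9 and 4 cells of the Csf2+/- libraries (log2 change -2.97, SE 0.51, adjusted p = 0.0357 by edgeR). Retnla, an alternatively activated macrophage gene named after its values were seen, had 1 and 2 UMIs in 1 cell each of the Csf2-/- libraries and 549 and 202 UMIs in 29 and 13 cells of the Csf2+/- libraries, with 444 of the 549 in 1 cell. Its log2 change of -7.05 did not pass (adjusted p = 0.484 by edgeR), but it was called under 7 of 17 other settings, DESeq2 among them (adjusted p = 4.55e-11). The 39 cells rich in other lineages' genes, described next, held 93.2% of its UMIs, and without them its log2 change was -3.15, just short of the threshold.

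Low counts of some genes of other lineages were widespread. Dcpp2, a secreted protein of salivary epithelium, had a UMI in 151 of 166 and 74 of 106 Csf2-/- B cells and in 61 of 247 and 132 of 156 Csf2+/- B cells, and Cst3, a protease inhibitor on the dendritic cell list, in 130 and 87 Csf2-/- and 186 and 108 Csf2+/- B cells. Higher counts of chosen lineage genes were in fewer cells. At least 5 UMIs of Lyz2, or of Gata3, Il1rl1, Ncr1, Klrb1c, Siglech and Epcam together, were in 39 B cells, 8 and 7 in Csf2-/- females and males and 9 and 15 in Csf2+/- females and males. They held 2820 of the 2997 Lyz2 UMIs of B cells. Their median depth was 14116 and 12848 UMIs in Csf2-/- and 14465 and 15222 UMIs in Csf2+/- libraries, against 4616 to 5246 UMIs for the rest. Doublet calls covered 35 B cells, 21 of them among these 39. The number of doublets was set in advance. Scrublet's automatic threshold called 0% to 0.0343% of kept barcodes per library. The 7.01% to 7.80% with the highest scores, the share expected from the number of barcodes, were taken instead. The 15 macrophage markers summed to 565 and 1223 CPM in Csf2-/- and 1330.2 and 1938 CPM in Csf2+/- B cells, and all 15 had a UMI. The 15 T cell markers, of which the rule sets Cd3d, Cd3e and Cd3g to 0, summed to 123 and 87.3 CPM in Csf2-/- and 168 and 187 CPM in Csf2+/- B cells. The 15 salivary epithelial markers, with Krt14, Krt5 and Smr3a at 0, summed to 2634 and 663 CPM in Csf2-/- and 859 and 1297 CPM in Csf2+/- B cells. The 15 natural killer and ILC1 markers summed to 467 and 70.4 CPM in Csf2-/- and 647 and 633 CPM in Csf2+/- B cells, with all 15 detected. Of the 13 that were tested 12 had a log2 change below 0, with a median of -1.37, beside 49.0% of all genes below 0, and none passed. The part of such cells in the calls was measured by leaving them out: 13 genes then passed, 8 higher and 5 lower in Csf2-/-, of which Fos and Pls1 were among the 7. The new calls included Cxcl10, Ccl5, Il1b, Il2rb and Klra4, each found in 1 to 27 cells per library when all B cells are counted. Others were spread over more cells: Pdia4, a chaperone of the endoplasmic reticulum, in 39 to 67 per library (log2 change 0.91, adjusted p = 0.0301 by edgeR), Rgs1, a regulator of G protein signalling, in 18 to 53 (log2 change -1.24, adjusted p = 0.0357 by edgeR), and Ly6a in 32 to 80.

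Fos, an immediate early gene induced by activation and by tissue dissociation, was the one call spread over many cells. It stood at 763 and 932 CPM in Csf2-/- B cells and 503 and 537 CPM in Csf2+/- B cells, and a UMI was found in 120 and 79 cells of the Csf2-/- and 162 and 108 cells of the Csf2+/- libraries. Both Csf2-/- libraries lay above both Csf2+/- libraries. The log2 change was 0.75 (SE 0.12, adjusted p = 0.0278 by edgeR), a pooled ratio of 1.60. Without the cell richest in Fos in each library the levels were 607 and 776 CPM in Csf2-/- and 468 and 473 CPM in Csf2+/- B cells. The same order held outside the B cells, without a test: Fos stood at 1765 and 1807 CPM in the other kept cells of Csf2-/- libraries and 1323 and 1255 CPM in those of Csf2+/- libraries, and at 852 and 849 CPM in Csf2-/- T cells and 628 and 560.4 CPM in Csf2+/- T cells. Its call was lost under 9 of 18 other settings, among them the removal of the secreting cells (log2 change 0.64, adjusted p = 0.882 by edgeR) and the stricter rule for B cells (log2 change 0.29, adjusted p = 0.994 by edgeR). It held without the 39 cells rich in other lineages' genes (log2 change 0.80, adjusted p = 0.00455 by edgeR). Of the other 19 dissociation stress genes none passed, beside 0.0870% of all genes tested.

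**Figure D4:**
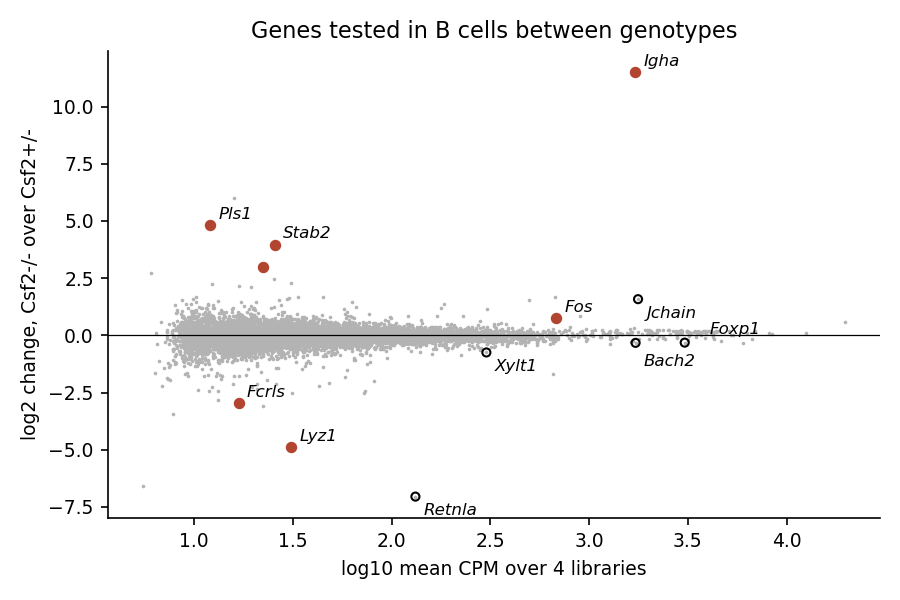
Log2 change between genotypes (Csf2-/- over Csf2+/-) against log10 of the mean CPM over 4 libraries, 1 point per gene tested in B cells. Red points are the 7 genes that passed, 6 of them labelled, and open circles name genes that did not, and among the red points Fos had the smallest change (0.75) and Igha the largest (11.51).

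**Figure D5:**
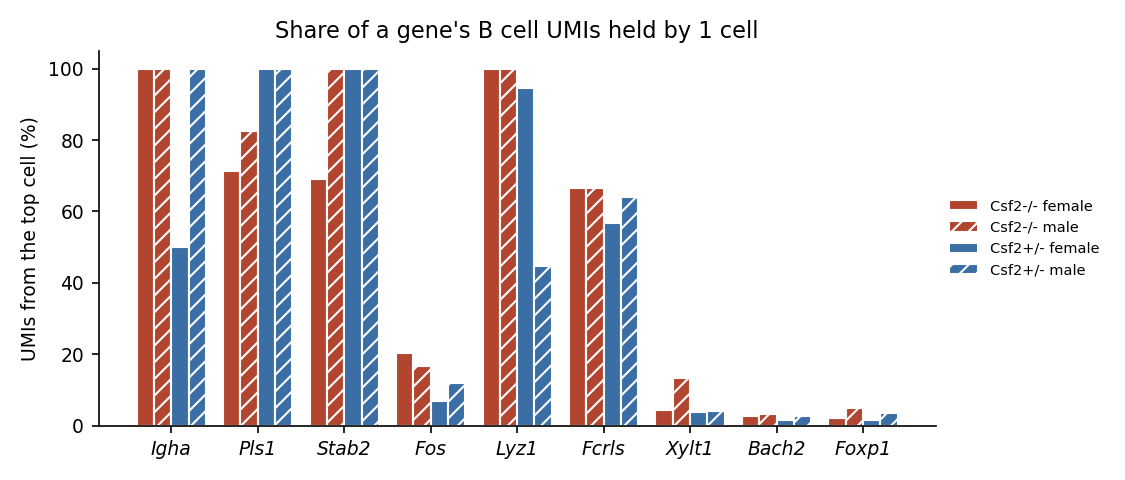
Percentage of a gene's B cell UMIs that lay in the single richest cell of each library (red Csf2-/-, blue Csf2+/-, plain female, hatched male). For 5 of the 6 called genes shown 1 cell held much of the UMIs in each library, while Fos and the uncalled genes Xylt1, Bach2 and Foxp1 were spread over many cells.

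No gene on the lists of B cell identity and maturity passed in either direction, with genotype as the only term. Since 0.0870% of all genes tested passed, lists of this size would mostly hold no call. With sex as a block, which leaves 1 residual degree of freedom, 10 of these genes passed, 7 higher and 3 lower in Csf2-/-, Foxp1 among them (log2 change -0.33, adjusted p = 0.0153 by edgeR). Over all genes that fit called 91 (1.13% of those tested), 36 higher (0.447%) and 55 lower (0.684%). Under the other settings run, 0 to 6 genes of these lists passed. Of 16 B lineage transcription factors tested none passed, with a median log2 change of 0.10. The lowest p-values were those of Bach2, which holds back plasma cell differentiation, at 1439 and 1558 CPM in Csf2-/- and 1928 and 1963 CPM in Csf2+/- libraries (log2 change -0.33, SE 0.09, adjusted p = 0.496 by edgeR), and of Foxp1, a regulator of naive B cells, at 2779 and 2534 CPM in Csf2-/- and 3533 and 3344 CPM in Csf2+/- libraries (log2 change -0.32, SE 0.09, adjusted p = 0.496 by edgeR). Both were in nearly all B cells and their libraries did not overlap between genotypes, as for 36.6% of all genes. Xylt1, which starts proteoglycan chains, was among the uncalled genes with the lowest p, at 234 and 205 CPM in Csf2-/- and 343 and 425 CPM in Csf2+/- libraries (log2 change -0.75, SE 0.16, adjusted p = 0.120 by edgeR).

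None of 21 B cell receptor and signalling genes passed (median 0.03), nor of 15 follicular (0.03), 8 transitional (0.21), 7 pro-B and pre-B (0.20), 6 marginal zone (-0.28), 14 B-1 (-0.01), 4 germinal centre (-0.14) or 7 memory genes (-0.46). Over all genes tested 0.0870% passed, so these counts say little about the lists. Cd79b and Ms4a1, partners in and beside the receptor, had log2 changes of 0.17 and 0.21. The Vpreb3 change was 0.40 (SE 0.26, adjusted p = 0.921 by edgeR) and that of Cd93 0.67 (SE 0.37, adjusted p = 0.885 by edgeR). Of 13 plasma cell genes 12 were above 0, with a median of 0.46, beside 51.0% of all genes above 0, and none passed. Their leading member Jchain stood at 3619 and 1621 CPM in Csf2-/- and 1081 and 741 CPM in Csf2+/- libraries (log2 change 1.58, SE 0.65, adjusted p = 0.908 by edgeR), nearly all of it in the 5 secreting cells. It passed with each cell thinned to 2000 UMIs (log2 change 1.53, adjusted p = 0.00773 by edgeR). Of 7 immunoglobulin constant genes tested Igha alone passed.

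No gene of antigen presentation passed, beside 0.0870% of all genes tested, and the same share applies to the other lists given here. Cd74, the class II invariant chain, had 8556 and 8470.4 CPM in Csf2-/- and 9009 and 7900.5 CPM in Csf2+/- B cells, and H2-Aa, a class II chain, had 2555 and 2802 CPM in Csf2-/- and 2928 and 2887 CPM in Csf2+/- B cells. Of 14 such genes, with a median log2 change of -0.10, 5 were above 0, beside 51.0% of all genes. Of 12 survival genes tested, 13 interferon response genes, 18 proliferation genes and 14 chemokine and homing receptors none passed, with median log2 changes of -0.00, 0.29, -0.08 and -0.12. Of the 13 interferon response genes 12 were above 0, beside 51.0% of all genes. With sex as a block 3 of the 13 passed, all higher in Csf2-/-, and with no filter on low counts 2 of 20 did, both higher. With genotype as the only term the lowest p was that of Ly6a, at 261 and 326 CPM in Csf2-/- and 185 and 150 CPM in Csf2+/- libraries (log2 change 0.84, adjusted p = 0.0822 by edgeR). It passed when the 39 cells rich in other lineages' genes were left out (log2 change 0.75, adjusted p = 0.0334 by edgeR).

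The receptor for the missing growth factor was sparse in B cells. Csf2ra, the GM-CSF receptor alpha chain, was at 14.0 and 24.5 CPM in Csf2-/- and 37.1 and 39.8 CPM in Csf2+/- B cells (adjusted p = 0.715 by edgeR), against a mean of 177 CPM in macrophages (barcodes with at least 20 C1q UMIs and no Cd79a or Cd3 UMI). Csf2rb, the shared beta chain, averaged 21.2 CPM in B cells and 51.8 CPM in macrophages. The 39 cells rich in other lineages' genes held 54.5% of the Csf2ra and 48.3% of the Csf2rb UMIs of B cells. Without them Csf2ra stood at 12.5 and 16.4 CPM in Csf2-/- and 22.2 and 10.5 CPM in Csf2+/- B cells, and its log2 change was -0.26 (adjusted p = 0.956 by edgeR), closer to 0 than with them. None of the 12 GM-CSF and related receptor genes tested passed, beside 0.0870% of all genes tested.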

How the data were processed

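Values in the deposited files are raw UMI counts (whole numbers, a row per gene and barcode). Libraries were made with the 10x 3' kit labelled v2 per the labels' protocols, and Cell Ranger 7.0.0 with GRCm39 is named in the submitters' processing notes. The rule for B cells was applied to the raw counts of barcodes passing the filters (37644 of 39395 deposited). T cells and macrophages, used only as background, were chosen by Cd3 and C1q UMIs in the same way. The members, gene lists and rules were chosen with earlier results of these data known.

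UMIs were summed over B cells per library, which gave 1002657 and 653218 in the Csf2-/- female and male and 1591477 and 1131574 in the Csf2+/- female and male. They were tested with edgeR 4.0.16 (R 4.3.3), quasi-likelihood, TMM, default low-count filter, genotype as the only term (2 residual degrees of freedom). The fit was also run on simulated counts, with a dispersion set by mean level, and the outcome is not given here. Such counts do not cover genes held by 1 cell. The SE is the change over the square root of F. CPM was computed from the sums. Shares thinned to 2000 UMIs are exact expectations over all draws, with exact binomial 95% intervals for unthinned counts and exact two-sided permutation tests over libraries (scipy 1.17.1). 15 values were compared between genotypes. Every p was 0.333 or above, which adjustment cannot lower. Genes named were, among those past 0.05 whose mean reached 10 CPM and whose libraries did not overlap, the 10 with the largest change each way, where fewer than 5 passed also the 5 with the lowest p, up to 4 members of each list by level and by p, and the 15 with the largest B cell ratio. Some genes this rule names are not reported here. Genes called after cells rich in other lineages' genes were left out were named after their values were seen. Alternatives were DESeq2 1.42.0, limma-voom 3.58.1, other scaling and filters, doublets left out, other cell rules, sex as a block, and each library left out. Doublets were the expected share of each library's barcodes with the highest Scrublet scores (scanpy 1.11.5), since its automatic threshold called almost none. Of 26033 features, 312 share a symbol and were kept apart by identifier. No coordinates are given.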

Additional observations from a re-analysis of the deposited data

Results flagged for a closer look

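In 6 values the Csf2-/- minus Csf2+/- difference had opposite signs between the female pair and the male pair of libraries, with 1 library per sex and genotype, and the difference between the sexes was not tested. The kappa share of light chain UMIs differed by 9.07 points in females and -7.85 points in males, and Ighd UMIs per 100 Ighm UMIs by -0.638 and 2.42. Without the 5 secreting cells these differences, over both sexes, were 3.05 points and 0.173. In percentage points of B cells, the share with Ighd differed by 4.04 in females and -3.14 in males, Cr2 by -2.80 and 0.228, Mki67 or Top2a by -0.800 and 1.66, and Cd5 by 0.291 and -0.534.

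Outside the rule, 3 further barcodes had at least 100 Jchain UMIs, all in Csf2-/- libraries (1 female, 2 male) and 0 in Csf2+/- libraries. Their lead heavy chain was Ighm, at 1270, 1261 and 2837 UMIs, and each was left out for a Cd3 UMI. Counted with the 5 inside the rule, Csf2-/- libraries held 6 such barcodes and Csf2+/- libraries 2, with no test.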

How the results depend on the processing

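The lower B cell share in Csf2-/- kept its direction under the alternatives run, between -1.18 and -0.378 points of kept barcodes, the ends of that range being 2 of the fits without 1 library. As a share of B and T cells it was -3.55 to -1.71 points when 1 library was left out, -1.64 points under the stricter rule and -5.01 points with the rule applied after thinning. For the share of kept barcodes the exact permutation p, 0.333 in the main setting, was 0.667 under the limits of 1000 UMIs and 5% mitochondrial UMIs. It was also 0.667 under the stricter rule, with the rule on thinned counts, and without cells rich in other lineages' genes. In those settings another split of the libraries differed at least as much as the genotypes did. Shares within B cells were less stable. Genotype differences that changed sign, in percentage points unless said, were, under the stricter rule, the kappa share (-11.2), Cd93 (-0.921), Cr2 (0.241) and at least 2 Jchain UMIs (-0.578). With the rule applied after thinning they were Ighd per 100 Ighm UMIs (-0.302), the Ighd share (-1.62) and Cd5 (0.243), and without thinning Ighd (-4.54), Fcer2a (-0.0840) and Jchain (-0.396). Without the secreting cells, an alternative chosen after seeing the data, they were switched classes (-0.0580) and Jchain (-0.0826). Leaving out 1 library gave ranges across 0 for the kappa share (-5.82 to 7.04), Ighd per Ighm (-0.173 to 1.95), Ighd (-3.03 to 3.93), precursor genes (-0.119 to 0.359), Mki67 or Top2a (-1.94 to 2.79) and Cd5 (-0.399 to 0.156). Ranges on 1 side of 0 were Cd93 0.598 to 1.48, Fcer2a 0.730 to 2.80, Cr2 -2.53 to -0.0449, switched classes 0.551 to 0.902, Jchain 0.225 to 0.742, Vpreb3 1.62 to 6.20 and Ccr7 -7.97 to -0.176. Sizes moved too: Vpreb3 (main 3.91) was 0.0979 under the stricter rule and 0.842 unthinned, and the kappa share (main 0.610) was 16.4 with doublets left out. The causes were not tested.

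The 5 genes higher and 2 lower in Csf2-/- became 36 and 55 with sex as a replicate block, which leaves 1 residual degree of freedom, 0 and 0 with limma-voom (426 genes at an unadjusted p under 0.05), 54 and 42 with no filter on low counts, 2 and 4 with each cell thinned, 5 and 4 without doublets, 2 and 1 with at least 1000 UMIs and at most 5% mitochondrial UMIs, 0 and 0 under the stricter rule (271 unadjusted by edgeR), 2 and 0 with the rule on thinned counts, 2 and 2 without secreting cells, and 8 and 5 without cells rich in other lineages' genes, the last also chosen after seeing the data. Without 1 library, where the lone library of a genotype is assumed to vary like the other genotype's 2, they ran from 0 to 35 and from 5 to 13 (main 2). The male and female libraries share a sex, not a batch named in the labels, so the block is not a pairing by design. With 2 libraries per genotype and 106 to 247 B cells in each, a gene carried by 1 cell cannot be told apart from a difference between genotypes.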
